A study of Mus musculus with 91 samples.

Results

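The 9 genes described here, Klf2, Klf3, Foxo1, Foxo3, S1pr1, Pik3ip1, Btg1, Btg2 and Tob1, are linked to T cell quiescence and to exit from lymphoid tissue. They are 9 of the 20378 genes that occur in at least 1 of the 8 deposited tables, and were measured and passed the low-count filter in every table. They were chosen by symbol with earlier results of these data known. The shares of all genes given beside them are therefore context and not a test. The cells were splenic regulatory T cells (Tregs, suppressive CD4 T cells defined by the transcription factor Foxp3) of C57/BL6 mice with a red fluorescent protein reporter of Foxp3, and their total RNA was sequenced after removal of ribosomal RNA. The treatments were mouse IL-2 (mIL-2), a fusion of mouse IL-2 with its receptor chain CD25 (mIL-2/CD25, called FP in the labels) or PBS. At 1.5 h and at 16 h every treatment had 4 libraries. The 4 h table held 3 PBS, 4 IL-2 and 3 FP libraries, that of 72 h held 3, 3 and 4, and that of 168 h held 3 PBS and 4 FP. In the in vitro table (1.5 h) and in the high-dose table, whose dose and time the labels do not give, PBS and IL-2 had 3 libraries each. A restimulation table (1.5 h) held 3 libraries of mice given PBS and again PBS, 3 given PBS and then 1 dose of FP (single FP), and 4 given FP and then FP again (repeat FP). The labels do not say that replicates came from separate animals, so p-values reflect the spread of these libraries alone, which may be technical.

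KLF2 and KLF3 are Kruppel-like transcription factors; KLF2 keeps naive T cells quiescent and drives S1pr1, the receptor that reads sphingosine-1-phosphate and lets lymphocytes leave lymphoid organs. FOXO1 and FOXO3 are forkhead factors that are active in resting T cells, raise Klf2 and Il7r among other targets, and leave the nucleus when PI3K and AKT phosphorylate them. PIK3IP1 is a membrane inhibitor of PI3K, and BTG1, BTG2 and TOB1 are anti-proliferative adaptors that bring the CCR4-NOT deadenylase to mRNA.

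To show what lies at the start sites of these genes, the RefSeq promoter windows of GRCm38.p6, 300 bases each from 250 before to 50 after a start, were searched on both strands for the forkhead motif GTAAACA and the STAT motif TTCNNNGAA. Windows were at hand for 8 members, S1pr1 being named only. Of the 8, 1 held GTAAACA and 0 held TTCNNNGAA. The match was in the window of Btg1 at chr10:96616751-96617050 on the plus strand, where it starts at position -204 from the start site and reads on the opposite strand. Pik3ip1, the member with the largest changes below, had neither motif in its window at chr11:3330481-3330780 on the plus strand. This window lies wholly after the gene start in the GENCODE annotation, 3330401, so the bases before that start were not searched. Both windows are shown 5′ to 3′, with the forkhead match in capitals.
Btg1: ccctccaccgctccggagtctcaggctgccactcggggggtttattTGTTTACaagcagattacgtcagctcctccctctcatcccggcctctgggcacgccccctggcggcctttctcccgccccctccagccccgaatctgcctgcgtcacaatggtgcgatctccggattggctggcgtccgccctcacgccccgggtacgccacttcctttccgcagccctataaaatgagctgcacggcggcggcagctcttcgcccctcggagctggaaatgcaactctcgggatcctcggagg
Pik3ip1: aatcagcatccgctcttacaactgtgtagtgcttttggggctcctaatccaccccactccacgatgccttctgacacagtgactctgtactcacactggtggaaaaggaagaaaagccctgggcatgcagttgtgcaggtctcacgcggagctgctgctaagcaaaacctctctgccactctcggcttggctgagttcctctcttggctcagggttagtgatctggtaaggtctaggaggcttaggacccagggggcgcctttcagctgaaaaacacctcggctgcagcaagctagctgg
Among all 32817 windows of the table, 3.65% held GTAAACA and 8.29% held TTCNNNGAA. These matches are letters in a short window and say nothing of binding.

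Library totals ran from 12.2 to 46.1 M reads. The cells carried Treg and T cell RNA throughout: Foxp3 lay between 348.5 and 982.3 CPM (counts per M reads of the library, M as in mega, TMM-scaled within each table) and Cd3e between 474.8 and 1100.0 CPM over all 73 grouped libraries, against at most 10.98 CPM for the B cell gene Cd79a. RNA of macrophages was present as well, their gene Csf1r reaching 452.5 CPM in an IL-2 library of 1.5 h. B cell markers together reached 1238 CPM in a high-dose IL-2 library, where 7 of 12 were tested. At 4 h, 2 libraries entered no group, because the injected molecule given for each goes against its title. The library labelled single FP 1 in the restimulation table did not carry the IL-2 response of its group: its Il2ra was 565.7 CPM, against 1785.0 and 1708.0 CPM in the other single FP libraries and 568.9 to 639.4 CPM after PBS. Results of that table are therefore given with it and, where stated, without it. Levels are comparable within a table only, because each table was scaled alone. Counting is not stated to use the strand, and exons of Foxo1, Klf3 and Pik3ip1 share 674, 404 and 91 bases with genes on the opposite strand (Gm20402, Gm20033 and Gm12592), so reads of these pairs cannot be told apart.

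Per kilobase of exon, Btg1 was the most abundant of the 9 in the 1.5 h PBS libraries, at a mean of 298 CPM per kb, and Tob1 the least, at 8.73. Between them came Klf2 (172.8), S1pr1 (133.5), Btg2 (123.8), Pik3ip1 (45.84), Foxo1 (41.23), Klf3 (33.04) and Foxo3 (19.35 CPM per kb). The ranges of single libraries overlapped for S1pr1 and Btg2, and Pik3ip1, whose libraries ran from 29.78 to 66.22 CPM per kb, overlapped Foxo1 and Klf3. Btg1, Klf2, Foxo3 and Tob1 did not overlap their neighbours in this order.

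At 1.5 h after IL-2, Klf3, Foxo1, Pik3ip1 and Btg2 fell, and Klf2, S1pr1 and Btg1 had changes that did not pass the test. A gene is called changed here below an adjusted p of 0.01 (edgeR quasi-likelihood F test, Benjamini-Hochberg over all genes of the table), and changes are log2 of treated over PBS with their standard errors (SE). Of the 9 members, 4 were called lower and 0 higher, where 5.79% of all genes tested were called lower and 14.2% in either direction. The members' median change was -0.61, against -0.01 over all genes. Here as elsewhere, fewer cells holding an RNA and less RNA per cell cannot be told apart in bulk libraries. Groups that do not overlap are given as description only, without the share of all genes whose groups were apart.

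Klf3 stood at 423, 372, 391.5 and 299.9 CPM in the PBS libraries, at 168, 153, 158 and 139 CPM after IL-2 and at 161, 185, 155 and 189 CPM after FP. Every treated library lay below every PBS library. The change was -1.27 ± 0.11 after IL-2 (adjusted p = 1.91e-06) and -1.11 ± 0.11 after FP (adjusted p = 1.28e-05). Klf2, its relative, had 299 to 343 CPM after PBS, 199 to 403 CPM after IL-2 and 257 to 458 CPM after FP. The treated Klf2 libraries spread on both sides of the PBS libraries, with changes of -0.09 (95% interval -0.49 to 0.32) and 0.10 (-0.31 to 0.51).

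Foxo1 had 339.7, 364, 369 and 356 CPM after PBS, 247, 262, 211 and 219 CPM after IL-2 and 242, 261, 218 and 249 CPM after FP. The groups did not overlap, and the changes were -0.61 ± 0.08 (adjusted p = 0.000122) and -0.56 ± 0.08 (adjusted p = 0.000489). Foxo3 moved less: its IL-2 libraries (121 to 128 CPM) and FP libraries (124.5 to 136 CPM) all lay under the PBS libraries (138 to 154 CPM). Its changes of -0.22 ± 0.06 (adjusted p = 0.016) and -0.15 ± 0.06 (adjusted p = 0.121) missed the threshold, and DESeq2 called the first (-0.21, adjusted p = 0.00536).

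The widest change belonged to Pik3ip1, the PI3K inhibitor. PBS libraries held 233.5, 127, 139.7 and 283 CPM, IL-2 libraries 82.2, 77.5, 51.7 and 49.6 CPM, and FP libraries 49.7, 74.2, 74.5 and 67.9 CPM. The PBS libraries varied more among themselves than the treated ones, yet each was above all 8 treated libraries. Pik3ip1 fell by 1.59 ± 0.25 after IL-2 (adjusted p = 0.000339) and by 1.56 ± 0.25 after FP (adjusted p = 0.000795). S1pr1, the egress receptor, had 407, 421, 437 and 362 CPM after PBS, 356, 367, 364 and 343 CPM after IL-2 and 425.5, 455, 346 and 389 CPM after FP. The S1pr1 groups overlapped, with changes of -0.19 (interval -0.38 to 0.00) and -0.01 (-0.20 to 0.18).

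The anti-proliferative genes did not move as a block. Btg2 had 332, 396, 375 and 255.5 CPM after PBS, 175, 194, 181 and 108 CPM after IL-2 and 150.0, 212.5, 212.4 and 162 CPM after FP. Both treated groups lay below PBS, by 1.04 ± 0.18 (adjusted p = 0.000797) and 0.88 ± 0.18 (adjusted p = 0.00495) on the log2 scale. The call after FP was lost without FP library 1 (adjusted p = 0.0208), FP library 4 (0.0157) or PBS libraries 1, 2 or 3 (0.0133, 0.018 and 0.0159). Tob1, at 11.5 to 25.4 CPM after PBS, 8.05 to 14.2 CPM after IL-2 and 10.5 to 18.4 CPM after FP, had overlapping groups and changes of -0.87 ± 0.25 (adjusted p = 0.0207) and -0.59 ± 0.25 (adjusted p = 0.142). The low PBS library of Tob1 was number 4, and without it the IL-2 change was -1.06 (adjusted p = 0.00294). DESeq2 called that change with all libraries (-0.87, adjusted p = 0.00502). Btg1 ranged from 1436 to 1747 CPM after PBS, 945.8 to 1720 CPM after IL-2 and 1081 to 1737 CPM after FP, and neither change (-0.19 and -0.17) passed.

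For FP, 4 members were again called lower, where 2.28% of all genes were called lower and 6.67% in either direction. Set against IL-2 directly, FP libraries at 1.5 h showed no called member, nor any called gene (0 of 16643, with 970 at an unadjusted p under 0.05, and 1 by DESeq2). The intervals of the difference were widest for Tob1 (-0.26 to 0.83) and Pik3ip1 (-0.50 to 0.56) and narrowest for Foxo3 (-0.06 to 0.20). Marker sums moved with treatment here: the 12 B cell markers summed to 381.9 to 532.8 CPM after PBS, 237.2 to 279.9 CPM after IL-2 and 264.5 to 329.7 CPM after FP, none of the 12 being at 0 in any of these groups, and the 14 division genes to 1121 to 1411, 1672 to 1873 and 1658 to 1806 CPM. The division sum weighs abundant genes most, and after IL-2 single genes of that list were called in both directions. The 15 macrophage and myeloid markers, 12 of them tested, overlapped between the groups, at 549.5 to 2094 CPM after PBS, 479.2 to 2614 CPM after IL-2 and 1012 to 1801 CPM after FP. Their part in the members' changes was not tested.

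**Figure D1:**
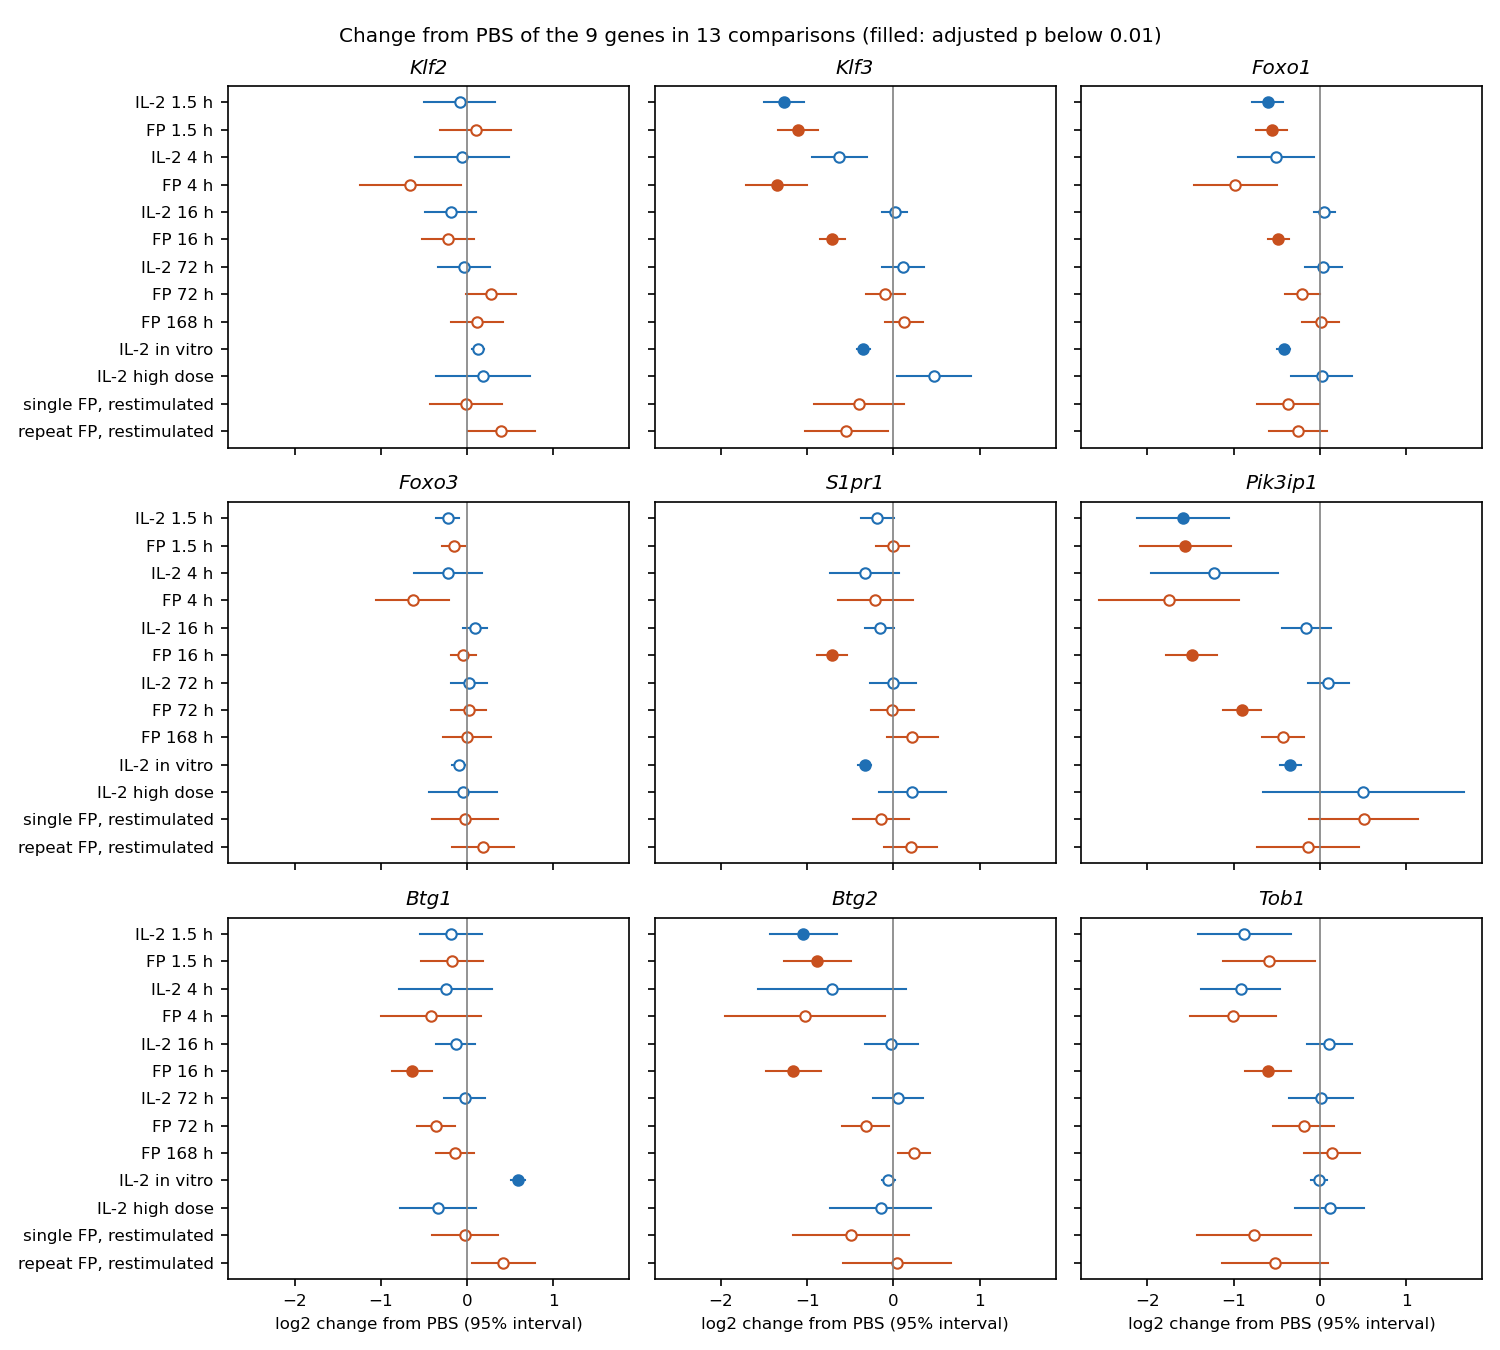
Log2 change from PBS (x axis) of each gene (panels) in the 13 comparisons of a treated group with the PBS group of its table (rows), with 95% intervals. Filled points were called at an adjusted p below 0.01; blue is IL-2 and orange FP. Klf2 and Foxo3 have open points in every row, and Pik3ip1 is at -1.48 after FP at 16 h.

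At 4 h the changes of all 9 members were below 0 after either treatment, but the libraries scattered more than at 1.5 h and few changes passed. After FP, 1 member, Klf3, was called lower, where 0.193% of genes were called lower and 0.913% in either direction. After IL-2 none was called (0.652% of genes), with 4 members at an unadjusted p under 0.05, and DESeq2 called Klf3 and Tob1. Klf3 had 323, 332 and 344 CPM after PBS, 196, 222, 192 and 252 CPM after IL-2 and 132.5, 119.8 and 139 CPM after FP. The 3 groups were separate, in the order PBS, IL-2, FP, with a change of -1.35 ± 0.16 after FP (adjusted p = 0.00294) and -0.63 ± 0.14 after IL-2 (adjusted p = 0.0539). That FP call was lost without FP library 1 (adjusted p = 0.0165), FP library 2 (0.0164) or PBS libraries 1, 2 or 4 (0.0156, 0.0249 and 0.0119), and in a fit of the FP and PBS libraries alone (0.0207), while the change stayed between -1.37 and -1.30.

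Pik3ip1 had 120.2, 191 and 74.1 CPM after PBS, 85, 49.7, 43.1 and 42.4 CPM after IL-2 and 42, 41.7 and 31.1 CPM after FP at 4 h. Every FP library was below every PBS library, and the change of -1.75 ± 0.37 had an adjusted p of 0.029. Tob1 (15.4 to 22.1 CPM after PBS, 8.87 to 9.93 CPM after FP) and Foxo1 (320.2 to 398 against 135 to 226 CPM) were separate from PBS too, at -1.003 ± 0.22 (adjusted p = 0.0372) and -0.98 ± 0.22 (adjusted p = 0.036). So were Klf2 (196.9 to 314.7 CPM after PBS, 140.3 to 184.6 CPM after FP) and Foxo3 (121.8 to 174.5 against 82.49 to 112.5 CPM). Their changes of -0.66 and -0.63 were not called. Libraries of the same number deviated together in this table between PBS and either treatment, but not throughout between FP and IL-2 (r from -0.275 to 0.863). For FP and PBS, libraries of other numbers reached r = 0.654. Numeric tags that 7 of its column headers share follow the number for the IL-2 and PBS libraries that share one. For FP and PBS the tags were split: FP library 4 carries the tag of PBS library 4, but FP library 2 that of PBS library 1. A block by number therefore joins FP library 2 to PBS library 2, against its tag. With the replicate number as a block, 5 members were called lower after FP: Klf3 (-1.35, adjusted p = 0.000227), Pik3ip1 (-1.69, 0.000783), Btg2 (-1.08, 0.00263), Foxo1 (-0.996, 0.00659) and Tob1 (-0.99, 0.00666). No member was called after IL-2 with the block, Pik3ip1 having the smallest adjusted p of 0.0148. With the tag as the block, in the 7 libraries that share one, the same 5 members were called after FP (adjusted p 2.45e-05 for Klf3 to 0.00371 for Tob1), and Pik3ip1 (-1.37, 0.000435) and Btg2 (-0.75, 0.00758) after IL-2. That fit held only FP libraries 2 and 4, IL-2 libraries 2 and 4 and PBS libraries 1, 2 and 4. Its adjusted p rest on few libraries, which the other fits also used, so it is no independent check. S1pr1 was the least changed after FP, at -0.21 (interval -0.64 to 0.22), with 294, 399.7 and 316 CPM against 362 to 427.5 CPM after PBS. FP against IL-2 at 4 h had no called member and no called gene (0 of 17636, with 482 at an unadjusted p under 0.05, and 4 by DESeq2, Klf3 among them at -0.73). Klf3 differed by -0.72 ± 0.15 there, with separate groups and an adjusted p of 0.951. Division genes summed to 980.5 to 1290 CPM after PBS, 1585 to 2235 CPM after IL-2 and 1659 to 2289 CPM after FP at 4 h, and their part in the members' changes was not tested. The sums of the B cell and macrophage markers overlapped between these groups.

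At 16 h, 7 of the 9 members were lower after FP and none had changed after IL-2. Pik3ip1, Btg2, S1pr1, Klf3, Btg1, Tob1 and Foxo1 fell, and Klf2 and Foxo3 were the members not called. Over all genes 14.3% were called lower and 28.8% in either direction. The members' median change was -0.64, against -0.05 over all genes. After IL-2 the changes of the members ran from -0.19 to 0.11, with 0 at an unadjusted p under 0.05, 0 called by DESeq2 and 0.35% of all genes called.

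Pik3ip1 was 42.7, 43.7, 43 and 41.7 CPM in the FP libraries, against 159, 93.8, 123 and 103 CPM after PBS and 129, 111, 93.1 and 95.1 CPM after IL-2. The FP libraries sat within 2 CPM of each other, while IL-2 and PBS libraries overlapped. The change was -1.48 ± 0.14 (adjusted p = 3.17e-07) from PBS and -1.33 ± 0.14 (adjusted p = 1.01e-06) from IL-2. Klf3 stood at 238, 242, 239.6 and 253 CPM after FP, 444, 364, 401 and 380.3 CPM after PBS and 377 to 413 CPM after IL-2. Only the FP group of this table was apart, with -0.71 ± 0.07 (adjusted p = 5.56e-07). Foxo1 showed the same order of groups, with 254.5 to 269.5 CPM after FP, 342 to 387 CPM after PBS and 373 to 387 CPM after IL-2, and a change of -0.48 ± 0.06 (adjusted p = 7.53e-06).

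S1pr1 was lower after FP at this time, whereas its FP and PBS libraries overlapped at 1.5 h. Its libraries held 254, 228, 225 and 229 CPM after FP, 367, 344, 445 and 379 CPM after PBS and 351, 330.0, 369.8 and 323.5 CPM after IL-2. All FP libraries were below all others, and S1pr1 fell by 0.71 ± 0.08 (adjusted p = 2.83e-06) from PBS and by 0.55 ± 0.08 (adjusted p = 3.59e-05) from IL-2. Klf2, which drives S1pr1 in naive T cells, was 266, 207, 238 and 216 CPM after FP and 296, 238, 342 and 203 CPM after PBS. These overlapped, at -0.22 (interval -0.52 to 0.08). Foxo3 was 129.7 to 132.3 CPM after FP and 120.5 to 147.6 CPM after PBS, at -0.04 (-0.19 to 0.10).

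Among the anti-proliferative genes, Btg2 was 183, 126, 119.6 and 109 CPM after FP and 338, 274, 349 and 240.1 CPM after PBS, a change of -1.16 ± 0.15 (adjusted p = 1.08e-05). Btg1, 911.6, 785.4, 785.7 and 680.8 CPM after FP and 1084 to 1436 CPM after PBS, changed by -0.64 ± 0.11 (adjusted p = 0.000157). Tob1, 11.8 to 13.8 CPM after FP and 16.7 to 24.8 CPM after PBS, changed by -0.60 ± 0.13 (adjusted p = 0.00124). In each of the 3 the FP group lay wholly below PBS. Compared with IL-2, 7 members were lower after FP (14.9% of genes called lower, 31.8% in either direction), with Foxo3 at -0.14 and Klf2 at -0.03 not called. Btg1 lost that call without IL-2 library 1 (-0.41, adjusted p = 0.0107). The 12 B cell markers summed to 322.6 to 343.4 CPM after FP and 357.2 to 559.4 CPM after PBS at 16 h, and the 14 division genes to 2980 to 3137 CPM against 1160 to 1344 CPM. Neither was tested for a part in these changes.

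**Figure D2:**
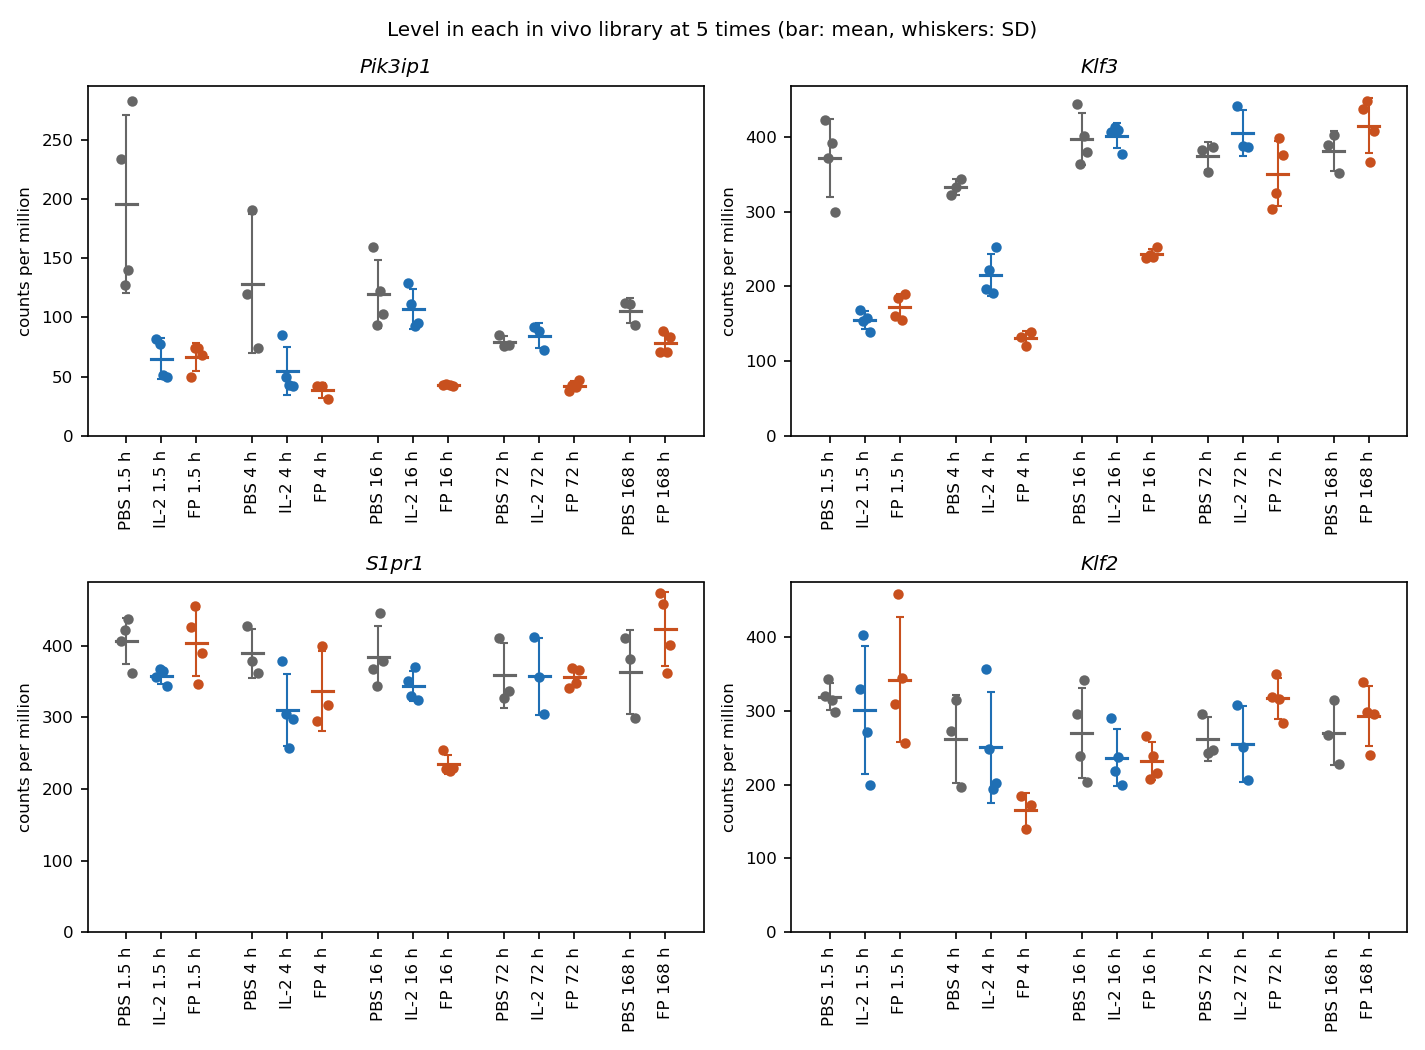
CPM (y axis, from 0) of Pik3ip1, Klf3, S1pr1 and Klf2 in each in vivo library at 1.5 to 168 h, by treatment (x axis), with the mean as a bar and the SD as whiskers. The tables were scaled separately. Pik3ip1 after FP sits near 43 CPM at 16 h and 72 h, S1pr1 is low in the FP libraries of 16 h (225 to 254 CPM), and Klf2 overlaps PBS at 1.5 and 16 h. At 4 h the FP libraries of Klf2 (140.3 to 184.6 CPM) lie below those of PBS.

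At 72 h Pik3ip1 was the 1 member still called after FP, and after IL-2 no gene was called at all (0 of 18624, with 82 at an unadjusted p under 0.05 and 0 by DESeq2; 0 of the 9 members under 0.05). After FP, 13.1% of genes were called lower and 30.4% in either direction, so 1 of 9 members is below the share of all genes. Pik3ip1 held 38.2, 43, 40.9 and 47 CPM after FP, 85, 75.5 and 76.5 CPM after PBS and 92.3, 88.8 and 72.6 CPM after IL-2. The FP libraries were apart from the rest, at -0.90 ± 0.10 (adjusted p = 2.76e-05) from PBS and -0.999 ± 0.10 (adjusted p = 1.31e-05) from IL-2, the sole member called there (12.9% of genes lower, 30.8% in either direction). Btg1 was next, at 995.2, 975.3, 817.8 and 908.2 CPM after FP against 1322, 1099 and 1133 CPM after PBS. Its groups did not overlap, and its change of -0.36 ± 0.10 had an adjusted p of 0.0123, which was under 0.01 with DESeq2 (0.0067) and with either sequencer run alone (0.00916 and 0.00816).

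The other 7 members were not called at 72 h. S1pr1 was 341 to 368 CPM after FP and 327 to 411 CPM after PBS, at -0.01 (interval -0.26 to 0.24), and Klf3 304 to 399 against 353 to 387 CPM, at -0.09 (-0.32 to 0.14). Btg2 was 161 to 219 CPM after FP and 224.5 to 272 CPM after PBS, a change of -0.32 ± 0.12 with an adjusted p of 0.0525. Foxo1 was 319.4 to 351.8 CPM after FP and 354.5 to 424.2 CPM after PBS, a change of -0.20 ± 0.09 with an adjusted p of 0.0953. The FP libraries of both genes lay below all PBS libraries. Klf2 was the highest of the 9 changes, at 0.28 (-0.01 to 0.56), from 283 to 350.5 CPM after FP against 242 to 296 CPM after PBS. The 15 macrophage and myeloid markers, 13 of which were tested in this table and none at 0 in a whole group, summed to 30.7 to 138.5 CPM after FP and 648 to 1622 CPM after PBS. Division genes summed to 3362 to 5188 CPM against 1052 to 1213 CPM. The B cell markers, at 473.7 to 586 CPM after FP and 373.6 to 417.9 CPM after PBS, and those of CD8 T and NK cells, at 29.43 to 39.37 against 24.09 to 27 CPM, were higher in every FP library. Their part in the members' values was not tested.

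By 168 h no member was called after FP (0 by DESeq2 also; 2 at an unadjusted p under 0.05; 1.21% of all genes called). Pik3ip1 had 70.7, 88.8, 71.1 and 83.5 CPM after FP and 112, 111 and 93.5 CPM after PBS, at -0.43 ± 0.11 (adjusted p = 0.0855). Its groups were still separate. Btg2 was on the other side, with 336 to 376 CPM after FP above 291.5 to 311 CPM after PBS, at 0.24 ± 0.08 (adjusted p = 0.223). The macrophage markers summed to 36.11 to 63.31 CPM after FP and 429.5 to 611.8 CPM after PBS at this time, and division genes to 956.1 to 1225 CPM against 1102 to 1176 CPM.

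Whether an effect differed between times was tested as the difference of the log2 changes, each table keeping its own PBS libraries. For FP, S1pr1 was the member that differed between 16 h and 1.5 h: its change was lower by 0.68 ± 0.14 at 16 h (difference -0.68, adjusted p = 0.00334), where 0.931% of genes were called lower and 3.75% in either direction. This call was lost without FP library 3 (adjusted p = 0.0115) or 4 (0.01002) of 16 h. Between 72 h and 16 h the S1pr1 change was higher by 0.68 ± 0.14 (adjusted p = 0.00204) and that of Klf3 by 0.59 ± 0.13 (adjusted p = 0.0044), where 5.43% of genes were called higher and 10.9% in either direction. S1pr1 lost this call without PBS library 2 of 72 h (adjusted p = 0.0121). Klf3 lost it without FP library 1 (0.0105) or PBS library 1 (0.0102) of 16 h, or PBS library 2 of 72 h (0.0206). Pik3ip1 had a difference of 0.10 (interval -0.53 to 0.72) between 16 h and 1.5 h and of 0.56 ± 0.19 between 72 h and 16 h (adjusted p = 0.0421). Between 168 h and 72 h no member was called (6.22% of genes), with Btg2 at 0.59 ± 0.16 (adjusted p = 0.0194) and Pik3ip1 at 0.51 ± 0.15 (adjusted p = 0.0339).

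For IL-2, the changes of 4 members at 16 h were above those at 1.5 h: Klf3 by 1.27 ± 0.14 (adjusted p = 3.01e-06), Foxo1 by 0.65 ± 0.10 (0.000205), Pik3ip1 by 1.42 ± 0.33 (0.0055) and Btg2 by 1.01 ± 0.24 (0.00568). Over all genes 3.7% were called higher and 10% in either direction. Klf3 and Foxo1 kept this call without any 1 library. Pik3ip1 lost it without IL-2 libraries 3 or 4 or PBS library 1 of 1.5 h, or IL-2 libraries 1 or 2 or PBS libraries 2, 3 or 4 of 16 h (adjusted p 0.0116 to 0.0141). Btg2 lost it without PBS libraries 2 or 3 of 1.5 h, or IL-2 libraries 1 or 3 or PBS libraries 2 or 4 of 16 h (0.0126 to 0.0144).

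In culture, 1.5 h of IL-2 gave small changes in both directions, measured in libraries that varied little: 4 members fell and Btg1 rose. Of all genes 7.4% were called higher, 6.54% lower and 13.9% in either direction. Btg1 rose from 1262, 1363 and 1366 CPM to 2075, 1981 and 1946 CPM, by 0.59 ± 0.04 (adjusted p = 4.01e-12). All IL-2 libraries were above all PBS libraries, and Btg1 was not called higher in any other comparison here. Foxo1 went from 609.7, 659 and 615 CPM to 474, 472 and 464 CPM (-0.42 ± 0.04, adjusted p = 7.15e-10) and Klf3 from 314, 335 and 333 CPM to 259, 254 and 258 CPM (-0.35 ± 0.04, adjusted p = 1.26e-08). S1pr1, with 437, 446 and 467 CPM after PBS and 357, 367 and 349 CPM after IL-2, changed by -0.33 ± 0.04 (adjusted p = 4.59e-08). Pik3ip1 started low, at 42.7, 42.6 and 39.7 CPM, and went to 34.6, 32.5 and 31.5 CPM (-0.34 ± 0.06, adjusted p = 6.52e-05). The groups of these genes did not overlap. Foxo3 was apart as well, with 196.8 to 203.5 CPM after PBS and 179.8 to 190.5 CPM after IL-2, but was not called.

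Btg2 and Tob1, lower on average after 1.5 h of IL-2 in mice, were level in culture. Btg2 had 575, 558 and 585 CPM after PBS and 543, 569 and 534 CPM after IL-2, at -0.06 (interval -0.14 to 0.01), and Tob1 82.5, 78.1 and 83.6 against 78.5, 84.2 and 79.7 CPM, at -0.01 (-0.10 to 0.08). Klf2 was slightly higher, with 366 to 378 CPM after PBS and 391 to 416 CPM after IL-2, at 0.13 ± 0.04 (adjusted p = 0.0104). It passed 0.01 with DESeq2 (0.00469) and without IL-2 library 3 (0.00504). Tested as a difference between culture and mice, Klf3 alone was called, its change in culture being higher by 0.89 ± 0.13 (adjusted p = 0.000429; 5.17% of genes called in either direction). Btg2 (0.96, adjusted p = 0.0132), Btg1 (0.75, 0.0242), Pik3ip1 (1.22, 0.0306) and Tob1 (0.84, 0.0788) were not called, and DESeq2 called the first 3 of these as well (0.000927, 0.00348 and 0.0029). Without IL-2 library 2 or 4 of 1.5 h both Btg1 and Btg2 passed (0.00444 and 0.00732, or 0.00635 and 0.00526), without PBS library 4 of 1.5 h Btg2 and Tob1 (0.00214 and 0.00277), and without PBS library 2 of 1.5 h Pik3ip1 (0.00923).

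The PBS libraries in culture stood apart in level from those of mice, across tables scaled separately. Their mean Tob1 was 81.38 CPM, against means of 18.83 to 27.6 CPM in the 7 tables of mice. For Btg2 the means were 572.6 against 243 to 379 CPM and for Foxo1 628 against 357.3 to 414.3 CPM, while Pik3ip1, at 41.64 CPM, lay under the 78.98 to 195.8 CPM of mice. The 24 immediate early and handling stress genes (23 tested in this table) summed to 12240 to 12360 CPM in these libraries, against 1662 to 3919 CPM in the PBS libraries at 1.5 h in mice. With IL-2 in culture the same genes summed to 10120 to 10620 CPM, under every PBS library. Division genes summed to 827.4 to 839.4 CPM with IL-2 and 629.1 to 670.1 CPM with PBS, and macrophage markers to 326.2 to 344.3 against 293.6 to 325.2 CPM. Whether these bear on the members was not tested.

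**Figure D3:**
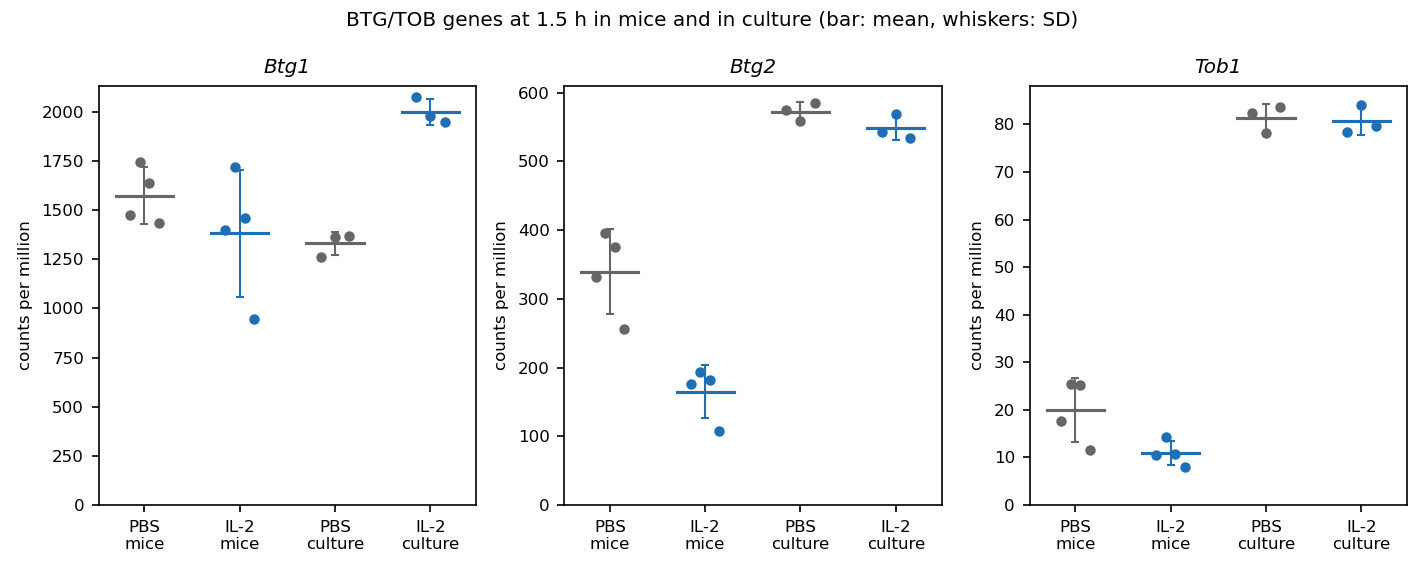
CPM (y axis, from 0) of Btg1, Btg2 and Tob1 in each library of the PBS and IL-2 groups at 1.5 h, in mice and in culture (x axis), with the mean as a bar and the SD as whiskers. The 2 tables were scaled separately. Btg1 is higher with IL-2 in culture (1946 to 2075 CPM), and Tob1 in culture is near 80 CPM in both groups.

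After high-dose IL-2 no member was called and no gene by the edgeR test (0 of 16668, with 2743 at an unadjusted p under 0.05, and 549 by DESeq2, none of them a member). Klf3 was 481, 387 and 492 CPM after IL-2 and 352, 349 and 283 CPM after PBS. Its IL-2 libraries all lay above PBS, at 0.47 ± 0.18 (adjusted p = 0.271), the opposite side from 1.5 h and 4 h. S1pr1 had groups in the same order, with 394, 505 and 422 CPM after IL-2 and 365, 389 and 379.7 CPM after PBS, at 0.22 ± 0.16 (adjusted p = 0.594). Pik3ip1 was spread by 1 library: IL-2 libraries had 68.9, 270.1 and 104 CPM and PBS libraries 114, 87.5 and 111 CPM. Its change was 0.51 (interval -0.66 to 1.67), and -0.23 ± 0.27 without IL-2 library 2. The 7 B cell markers tested in this table summed to 697.9 to 1238 CPM after IL-2 and 309.7 to 502.6 CPM after PBS. The macrophage markers summed to 68.79 to 102.9 CPM against 137.4 to 154.5 CPM, and division genes to 1443 to 2181 CPM against 1104 to 1409 CPM. Their part was not tested.

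In the restimulation table no member was called for single FP (0.0111% of all genes), repeat FP (0.629%) or repeat against single FP (0.585%). DESeq2 called 0 members in each of the 3. At an unadjusted p under 0.05 there were 2, 3 and 4 members. Tob1 held 24.2, 20.9 and 28.2 CPM after PBS, 9.63 and 10.5 CPM in the libraries labelled single FP 2 and 3, and 22.9 CPM in the library labelled single FP 1. With all 3 the change was -0.76 ± 0.30 (adjusted p = 0.436), and without the library labelled single FP 1 it was -1.28 ± 0.19 (adjusted p = 0.025). Btg2 had the same split, with 253, 243 and 314 CPM after PBS, 132 and 142 CPM in the libraries labelled single FP 2 and 3, and a level between those of PBS libraries 1 and 3 in number 1. Its change was -0.50 ± 0.30, or -0.98 ± 0.21 without number 1 (adjusted p = 0.791 and 0.0796).

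Klf3, at 348, 368 and 383.5 CPM after PBS, was 203 and 232 CPM in the libraries labelled single FP 2 and 3 and 400.5 CPM in number 1. Its change was -0.40 ± 0.23 with and -0.76 ± 0.16 without number 1 (adjusted p = 0.765 and 0.0755). Foxo1 was 357 CPM in number 1 and 252 and 257 CPM in the others, against 328 to 403 CPM after PBS, at -0.37 ± 0.16 and -0.55 ± 0.15 (adjusted p = 0.544 and 0.14). Pik3ip1 was 181 CPM in number 1, above every other library of the table, and 74.2 and 97.5 CPM in numbers 2 and 3, against 76.1 to 91.1 CPM after PBS. Its change was 0.51 ± 0.28 with and 0.06 ± 0.19 without number 1. Without that library no member was called either, among 31 called genes in the table.

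Repeat FP gave other values for the anti-proliferative genes. Btg2 was 266, 346, 209.7 and 289 CPM, which overlapped PBS (0.04, interval -0.59 to 0.67). Btg1 was 1815, 2168, 1529 and 1923 CPM against 1331, 1297 and 1539 CPM after PBS, at 0.42 ± 0.16 (adjusted p = 0.171). Without the library labelled single FP 1 the Btg1 change was 0.42 ± 0.14 (adjusted p = 0.126). Klf3 (200.3 to 274 CPM) and Tob1 (13.8 to 18.9 CPM) lay below all PBS libraries, at -0.54 ± 0.22 (adjusted p = 0.182) and -0.52 ± 0.28 (adjusted p = 0.301). Without the library labelled single FP 1 the SE of Klf3 was 0.13 and that of Tob1 0.15 (adjusted p = 0.0534 and 0.0878). Against single FP, repeat FP differed in Btg2 by 0.54 ± 0.29, or 1.02 ± 0.21 without the library labelled single FP 1 (adjusted p = 0.317 and 0.0562), and in Tob1 by 0.25 ± 0.28 or 0.76 ± 0.18 (adjusted p = 0.642 and 0.0762). The macrophage markers summed to 264.7 to 290.7 CPM after single FP and 52.11 to 138.4 CPM after repeat FP, and their part was not tested.

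The effect of single FP was also set against FP at 1.5 h in the earlier table, where no member and no gene was called (0 of 16772, with 1824 at an unadjusted p under 0.05). Pik3ip1 differed most, by 2.07 ± 0.43 (adjusted p = 0.0951), and by 1.60 ± 0.36 without the library labelled single FP 1 (adjusted p = 0.168). DESeq2 called it (adjusted p = 0.00138). Btg2 and Klf3 differed by 0.39 and 0.71 with, and by -0.11 and 0.34 without, that library.

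**Figure D4:**
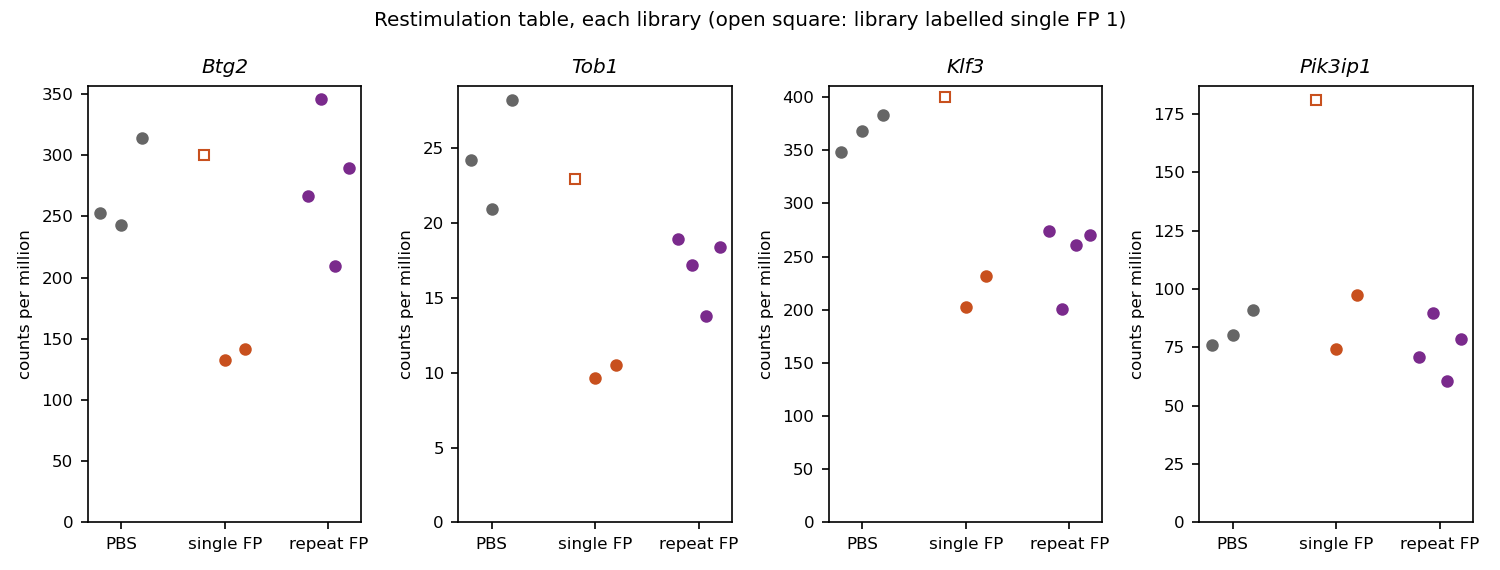
CPM (y axis, from 0) of Btg2, Tob1, Klf3 and Pik3ip1 in each library of the restimulation table, by group (x axis). The open square is the library labelled single FP 1, which lies within the range of the PBS libraries for Btg2 and Tob1, above it at 400.5 CPM for Klf3 and at 181 CPM for Pik3ip1.

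The other genes of these pathways were read from lists of known members, which were also chosen with earlier results of these data known. Their counts stand beside the share of all genes called in either direction, which was 14.2% after IL-2 at 1.5 h, 6.67% after FP at 1.5 h, 28.8% after FP at 16 h, 30.4% after FP at 72 h and 13.9% in culture. Of the 14 FOXO and KLF2 targets, 9 fell and 0 rose after IL-2 at 1.5 h (median -0.90), 8 fell after FP at 1.5 h (-0.67), 11 fell after FP at 16 h (-0.93) and 5 fell after FP at 72 h (-0.26). Medians over all genes were -0.01, -0.01, -0.05 and -0.05 in the same comparisons. The 5 of 14 at 72 h are near the 30.4% of all genes called in either direction. All 5 fell, where 13.1% of all genes were called lower. In culture 9 fell and 1 rose, and after IL-2 at 16 h or FP at 168 h none was called. Sesn1, a stress-induced inhibitor of mTORC1 signalling, fell by 1.44 ± 0.07 after IL-2 at 1.5 h and by 1.06 ± 0.07 after FP at 16 h. Bcl6, a transcriptional repressor, fell by 1.54 ± 0.16 after IL-2 at 1.5 h and by 1.25 ± 0.18 after FP at 72 h, and its change after FP at 16 h was -2.197 ± 0.12. Ccng2, a cyclin of non-dividing cells, fell by 1.41 ± 0.09 after FP at 16 h. Fbxo32, an atrophy-linked ubiquitin ligase component, fell by 0.91 ± 0.08 after IL-2 at 1.5 h and 0.79 ± 0.11 after FP at 72 h, where the IL-7 receptor gene Il7r fell by 1.14 ± 0.15.

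Of 25 other regulators of T cell quiescence, 24 were tested: 8 fell after IL-2 at 1.5 h, 6 after FP at 1.5 h, 15 fell and 2 rose after FP at 16 h, and 5 fell and 3 rose after FP at 72 h. The 8 of 24 at 72 h are near the 30.4% of all genes, with a median of -0.01. In culture 8 fell and 2 rose. Tcf7, which encodes the resting T cell factor TCF1, fell by 1.51 ± 0.10 after IL-2 at 1.5 h and by 1.07 ± 0.10 after FP at 16 h. Dtx1, a target of Notch, fell by 1.66 ± 0.17 in the former comparison, and its change in the latter was 1.16 ± 0.12, a rise. Rbl2, a pocket protein, fell by 0.58 ± 0.07 after IL-2 at 1.5 h and Slfn1 by 0.87 ± 0.10 after FP at 16 h. At 72 h the cell cycle inhibitor gene Cdkn2c rose by 3.66 ± 0.20 and Bach2 and Foxp1, transcription factors of resting lymphocytes, fell by 0.73 ± 0.09 and 0.53 ± 0.08.

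The S1P list beyond S1pr1 had 22 genes, 20 or 21 of them tested: 3 rose and 3 fell after IL-2 at 1.5 h, 5 fell after FP at 16 h, and 4 rose and 5 fell at 72 h. The 5 of 21 at 16 h are under the 28.8% of all genes called in either direction. All 5 fell, where 14.3% of all genes were called lower. S1pr4, another S1P receptor, fell by 0.65 ± 0.09 and 0.59 ± 0.09 in the former comparisons, and Arrb1, a beta-arrestin gene, by 0.61 ± 0.08, 0.53 ± 0.07 and 0.59 ± 0.09 in all 3. Sgpp1, an S1P phosphatase gene, rose by 1.00 ± 0.14 after IL-2 at 1.5 h. Spns1 fell by 0.54 ± 0.11 after FP at 16 h. After FP at 72 h the G protein gene Gnai2 rose by 0.98 ± 0.15 and Gna12 fell by 0.85 ± 0.11.

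Of 14 other KLF genes, 11 were tested: 1 rose and 1 fell after IL-2 at 1.5 h, 1 rose and 2 fell after FP at 16 h and 4 rose and 2 fell at 72 h. The 2 of 11 at 1.5 h and 3 of 11 at 16 h are near the 14.2% and 28.8% of all genes. Klf13 fell by 0.89 ± 0.08 and 0.46 ± 0.08 in the former comparisons, Klf16 rose by 0.94 ± 0.15 and 0.34 ± 0.10, and Klf7 fell by 0.63 ± 0.08 at 16 h. At 72 h Klf12 was among those that rose, as was Klf10 (by 0.83 ± 0.15), and Klf15 was among those that fell, with 12, 54 and 29 reads in the PBS libraries and 0, 1, 0 and 0 after FP. Of 30 regulators of PI3K, AKT and FOXO, 27 were tested: 3 rose and 2 fell after IL-2 at 1.5 h, 4 rose and 5 fell after FP at 16 h, and 8 rose and 2 fell at 72 h. These 5, 9 and 10 of 27 are near the 14.2%, 28.8% and 30.4% of all genes. Foxo4, another FOXO gene, fell by 0.65 ± 0.09 after IL-2 at 1.5 h and 0.72 ± 0.07 after FP at 16 h, and the kinase gene Akt1 rose by 0.50 ± 0.09 after IL-2 at 1.5 h and 0.91 ± 0.12 after FP at 72 h. Pik3cg, a PI3K catalytic subunit, rose by 0.50 ± 0.07 after IL-2 at 1.5 h. At 16 h the AKT phosphatase gene Phlpp1 fell by 0.77 ± 0.09, and at 72 h Phlpp2 rose by 0.74 ± 0.10 and the nuclear export receptor Xpo1 by 0.82 ± 0.13.

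Among 22 partners of BTG and TOB proteins and deadenylases, 3 rose and 1 fell after IL-2 at 1.5 h, 4 rose and 3 fell after FP at 16 h, and 5 rose and 2 fell at 72 h. These 4, 7 and 7 of 22 are near the same 3 shares of all genes. Zfp36l1, an mRNA decay factor, fell in all 3, by 0.78 ± 0.10, 1.11 ± 0.12 and 0.94 ± 0.10. Cnot9, a CCR4-NOT subunit, rose by 0.84 ± 0.07 at 16 h and 0.91 ± 0.11 at 72 h, Cnot6, a deadenylase, rose by 0.51 ± 0.08 at 72 h, and Pan2, another deadenylase, fell by 0.92 ± 0.09 at 16 h. Pabpc4 and Cnot4 rose by 0.34 ± 0.07 and 0.45 ± 0.09 after IL-2 at 1.5 h. For comparison, 9 of 10 IL-2 receptor response genes rose after IL-2 and after FP at 1.5 h and 10 of 10 after FP at 16 h. They were led by Lta (2.99 ± 0.12), Socs1 (2.03 ± 0.08) and Il2ra (1.88 ± 0.09) at 1.5 h, and Socs2 rose by 2.31 ± 0.09 at 16 h. Of 14 division genes, 2 rose and 2 fell after IL-2 at 1.5 h, 13 rose after FP at 16 h and 14 at 72 h, with the replication licensing gene Cdc6 up by 4.20 ± 0.12 and 4.09 ± 0.20.

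Likeness of pattern was described over all 73 grouped libraries, as Pearson's r of log2(CPM + 1) centred on each table's PBS mean, over 10903 genes averaging 5 CPM or more; libraries of a table share their scaling and treatment groups, so no p is given. Pik3ip1 was most like Bbc3 (r = 0.931), Cyth3 (0.924) and Tent5c (0.907), Klf3 most like Sesn1 (0.913), Nfatc3 (0.904) and Arl5c (0.894), and Foxo1 most like Ahdc1 (0.917), Klf13 (0.91) and Kif21b (0.883). Btg2 was most like Cdkn1b (0.913), A930024E05Rik (0.908) and Tagap (0.896). Foxo3 was nearest to Arid1b (0.906), Ssh1 (0.893) and Phf2 (0.891), and Tob1 to Mex3b (0.86), Dag1 (0.836) and Ccng2 (0.832). Lower values were reached for Btg1 (Pnrc1 0.826, Frat2 0.823, Rgs16 0.783), S1pr1 (Tcp11l2 0.806, H2-Ob 0.796, Gsn 0.782) and Klf2 (Egln2 0.73, Mark2 0.726, Hectd3 0.724). Between members, Klf3 and Foxo1 were most alike (r = 0.879), followed by Klf3 and Tob1 (0.79), Foxo1 and Tob1 (0.789), Btg2 and Tob1 (0.782) and Pik3ip1 and Btg2 (0.778). Klf2 and S1pr1 had r = 0.553, and 551 genes were more like Klf2 than S1pr1 was.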

How the data were processed

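Tregs sorted from spleen were profiled by total RNA sequencing after ribosomal RNA removal. The deposited values are raw gene counts, 8 tables in all, that the authors produced with STAR 2.5.0, GRCm38 and featureCounts 1.5.0, per the submitters' processing notes. The annotation, GENCODE M13, is named in the series text. Every deposited table holds only genes above 0.5 CPM in at least 3 columns. Gene IDs were matched to symbols for 99.72% of rows. The 91 samples are 75 libraries. Repeat sequencer runs of a library (16 samples) differed by a chi-square per degree of freedom of 1.03 to 1.08, against at least 2.65 between replicates, and were summed.

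Each table was fitted with edgeR 4.0.16 in R 4.3.3 (filterByExpr, TMM, 1 mean per group, 2-sided quasi-likelihood F test, Benjamini-Hochberg over all genes tested), with a call below 0.01, the authors' threshold. SE is the absolute change over the square root of F. Intervals are 95% intervals from the t distribution. The scripts were tested on simulated data. Named list genes are up to 3 called genes of smallest p per list in the comparisons IL-2 at 1.5 h, FP at 16 h and FP at 72 h. A gene that this rule names is not reported here. The members and lists were chosen with earlier results of these data known. Same-numbered libraries deviated together, with r of 0.278 to 0.881 (IL-2 and PBS) and 0.212 to 0.841 (FP and PBS, where 2 of 3 FP libraries were best matched by their own number) at 4 h and 0.405 to 0.541 (IL-2 and PBS) at 72 h. These comparisons were taken as paired by this correlation alone, since the labels do not state a pairing. FP and IL-2 libraries of the same number at 4 h had r from -0.275 to 0.863 and were not. Header tags shared by 7 libraries of the 4 h table, which pair FP library 2 with PBS library 1, were also used as a block, an alternative chosen after seeing the data. Alternatives were RLE scaling, DESeq2, no filter, 2-group fits, single runs, a replicate block, 1 library left out, the contradicting libraries grouped by title and a threshold of 0.05. Depth was 12.2 to 46.1 M reads, and members had 110 to 82556 reads per library.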

Additional observations from a re-analysis of the deposited data

Results flagged for a closer look

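At 16 h, 4 libraries stood away from the rest of their group by Dixon's test: S1pr1 in FP library 1 (254.2 CPM, the highest of 4), Klf3 in IL-2 library 4 (377.0 CPM, the lowest), Foxo3 in FP library 2 (129.7 CPM, the lowest) and Tob1 in PBS library 3 (24.77 CPM, the highest). They are 4 among 90 groups tested, a number that the 5% level of the test would give by chance.

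The FP effect on S1pr1 differed between 16 h and 1.5 h (-0.68) and between 72 h and 16 h (0.68), and that on Klf3 between 72 h and 16 h (0.59), by tests of the difference of log2 changes. The IL-2 effect differed between 16 h and 1.5 h for Klf3 (1.27), Foxo1 (0.65), Pik3ip1 (1.42) and Btg2 (1.01), and between culture and mice for Klf3 (0.89).

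Some pairs of effects lay on opposite sides of PBS in every library, and these differences were not tested. For the IL-2 effect on Klf3 the differences of log2 changes were -1.38 (1.5 h minus 72 h), -1.73 (1.5 h minus high dose), -0.74 (4 h minus 72 h), -1.09 (4 h minus high dose), 0.47 (72 h minus culture) and -0.82 (culture minus high dose). At 72 h the separation of Klf3 was slight: its lowest IL-2 library had 387.1 CPM and its highest PBS library 386.7 CPM. Its change there was 0.12, and 0 members had an unadjusted p under 0.05. For the IL-2 effect on S1pr1 it was -0.55 (culture minus high dose). For the FP effect on Btg2 the differences were -1.12 (1.5 h minus 168 h) and -1.40 (16 h minus 168 h). No member was called after IL-2 at 4 h, high-dose IL-2 or FP at 168 h, so these sides of the pairs had not passed the test.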

How the results depend on the processing

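No member changed direction past the threshold under any alternative run. Of the members' values, 3271 kept their direction and their side of the threshold, 153 changed sign with no call before or after or had no adjusted p, 45 gained a call and 32 lost one. The number of members called moved as follows, and the cause was not tested. For IL-2 at 1.5 h it was 4, with 6 by DESeq2 (Foxo3 and Tob1 gained), 5 with the replicate block (Tob1, adjusted p = 0.00356), 5 without PBS library 4 and 6 at 0.05. For IL-2 at 4 h it was 0, with 2 by DESeq2, 2 with the header tag as a block and 1 at a threshold of 0.05. For FP at 4 h it was 1, with 4 by DESeq2, 3 with the contradicting libraries grouped by title, 0 with only the 2 groups fitted, 5 with the replicate block, 5 with the header tag as a block, 4 at 0.05, and 0 to 1 with 1 library left out. For FP against IL-2 at 4 h DESeq2 called 1. For FP at 72 h it was 1, with 2 by DESeq2, 2 in the first run, 2 in the second run, 2 with the replicate block and 2 at 0.05. For FP against IL-2 at 72 h the replicate block gave 3 and 0.05 gave 4. Between times, FP at 16 h against 1.5 h gave 0 to 2 with 1 library left out, 72 h against 16 h 0 to 2 (4 at 0.05, and 3 by DESeq2, Btg2 gained at an adjusted p of 0.0097), and 168 h against 72 h 2 at 0.05. IL-2 at 16 h against 1.5 h gave 2 to 5 with 1 library left out, and culture against mice 1 to 3, with 4 by DESeq2 and 4 at 0.05. Single FP against FP at 1.5 h gave 1 by DESeq2. The replicate block changed no call of a paired comparison other than those named; IL-2 at 72 h had 0 calls with it. Over all genes, calls for FP at 4 h were 161, with 994 with the block, 1403 with the header tag, 1075 by DESeq2, 596 by title and 0 with only the 2 groups; for IL-2 at 4 h 115, with 509, 794, 774, 379 and 27. DESeq2 called 1688 genes against 1110 for FP at 1.5 h, 136 against 61 for IL-2 at 16 h (7 with only the 2 groups) and 520 against 210 for FP at 168 h. For high-dose IL-2 the count was 0, with 549 by DESeq2, 27 with RLE and 54 without PBS library 2. In the restimulation table DESeq2 called 143, 736 and 547 genes against 2, 113 and 105. DESeq2 also called more genes in differences between times: 1004 against 648 (FP, 16 h and 1.5 h) and 1992 against 1071 (FP, 168 h and 72 h). Groups of 3 or 4 libraries, and Tob1 with as few as 110 reads in a library, limit what small changes can be called.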

Other observations

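The 2 libraries of the 4 h table whose injected molecule goes against their title entered no group. The headers of the count table carry the group of the title for both. On a scale set with all 12 libraries of that table, the one titled as FP 3 had Il2ra at 2158 CPM and Klf3 at 146 CPM. Its Pik3ip1 was 33.5 CPM, its Foxo1 243 CPM, its S1pr1 294 CPM and its Tob1 9.62 CPM. The one titled as PBS 3 had Il2ra at 577 CPM and Klf3 at 314 CPM, with Pik3ip1 at 79.5 CPM, Foxo1 at 316 CPM, S1pr1 at 337 CPM and Tob1 at 17.9 CPM.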
